A study of Mus musculus with 11 samples.

Results

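The 39 protein-coding Hox genes of the mouse were followed through 11 RNA-seq libraries of neural progenitor cells (NPCs) cultured from E13.5 embryonic brains. Members were chosen by symbol (the letters Hox, a cluster letter from a to d and a number), and they make up 39 of the 53801 genes of the count tables and 39 of the 21967 protein-coding ones. All cells carried homozygous floxed *Smg6*, the gene of an endonuclease of nonsense-mediated mRNA decay, on a C57BL/6 and 129SV mixed background. The 3 Ctr cultures (embryos SMH_128, SMH_132 and SMH_133) were RosaCreER tg/+ and were not treated. The 4 *Smg6*-iKO cultures (embryos SMH_127, SMH_128, SMH_132 and SMH_133) had the same genotype and received 1 µM 4-hydroxytamoxifen (4-OHT) for 3 days per the labels, with RNA taken on day 6 from the start of treatment, so that 3 embryos were in both groups. The study's Results text instead describes the drug as present throughout that culture. Its Methods place neurosphere culture before the drug and RNA isolation 6 days after treatment. The 4 Ctr + 4-OHT cultures (embryos SMH_125, SMH_126, SMH_129 and SMH_131) received the drug but lacked CreER (RosaCreER +/+). RosaCreER is driven by the broadly active Rosa26 locus rather than by a cell type specific promoter. The SMH numbers of the sample titles were read as embryo numbers, and plots give them without the letters.

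Hox genes encode homeodomain transcription factors that give cells their position along the head to tail axis. In the mouse they lie in 4 clusters, HoxA to HoxD, and the order of the genes in a cluster follows the order in which they are switched on along the body: low-numbered (anterior) paralogs reach into the hindbrain, high-numbered (posterior) paralogs mark the caudal spinal cord, limbs and tail. The forebrain and midbrain develop in front of the anterior limit of Hox expression, where the clusters are held silent by Polycomb repression. A Hox code can thus place cultured cells of the hindbrain and spinal cord, but its absence cannot tell forebrain from midbrain.

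None of the 38 Hox genes that could be counted was expressed in these cultures, where a gene was called expressed at 1 CPM (counts scaled to library size) or more in at least 3 libraries. The other member, *Hoxd4*, could not be counted, since its exons all lie under those of other genes. By the same rule 13132 of 21967 protein-coding genes (59.8%) were expressed. Over all libraries the Hox genes received 220 counts of 319734346, and 100 of these (45.5%) fell on 1 gene, *Hoxb13*. Of the 429 values of 39 genes in 11 libraries, 332 (77.4%) were 0, 60 were 1, 25 were 2 or 3, and 12 were 4 or more. All but 1 of those 12 belonged to *Hoxb13*, and the exception was *Hoxd8* with 6 counts in 1 library. The highest Hox value in any library was 0.53 CPM, for *Hoxb13* in Ctr + 4-OHT embryo SMH_131.

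**Figure D1:**
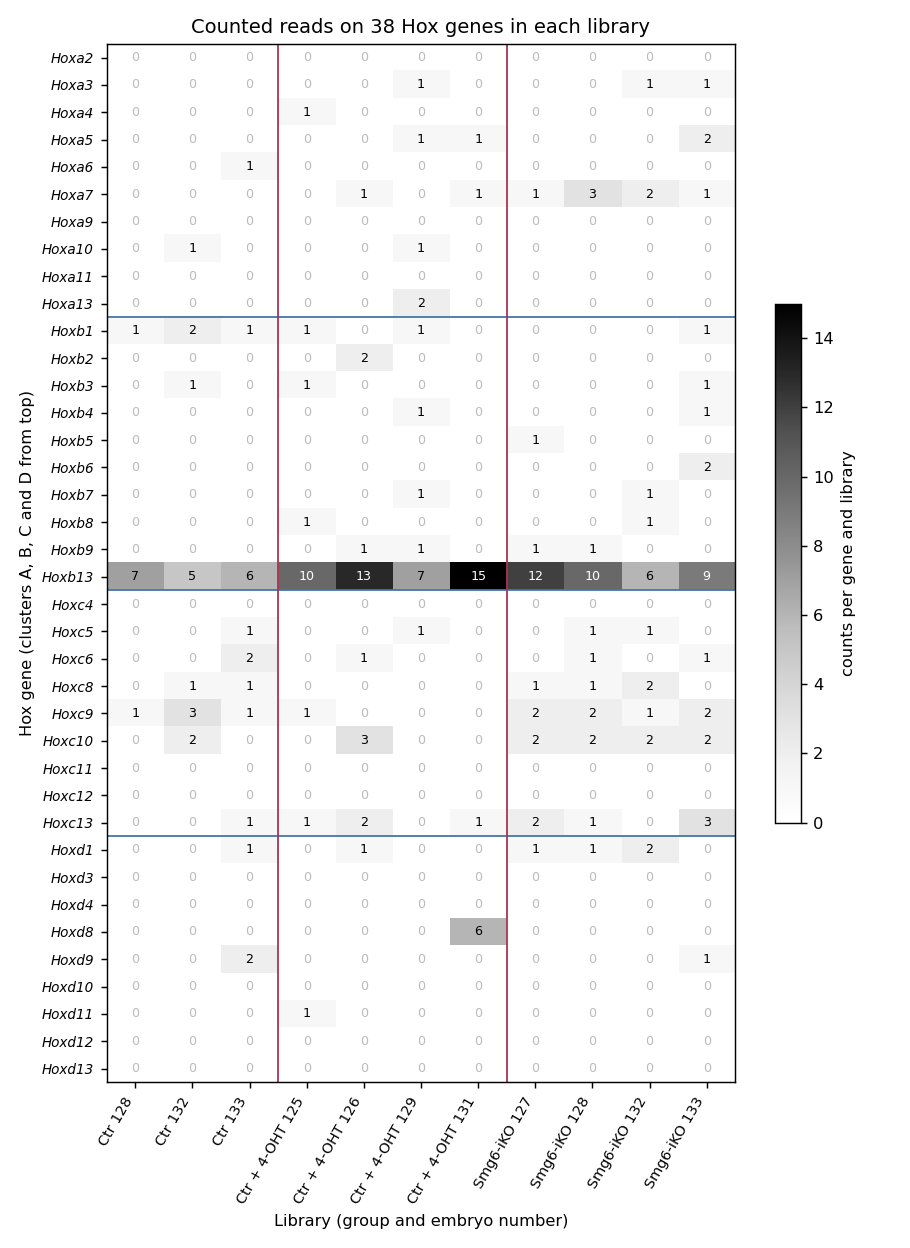
Counts of 38 of the 39 Hox genes (rows, clusters A to D from top to bottom, separated by blue lines) in each of the 11 libraries (columns, groups separated by red lines), with darker shading for more counts. *Hoxb13*, at 5 to 15 counts, is the only row filled in all 11 libraries, and most fields are 0.

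Libraries held 26418249 to 33756875 counted reads, so 0 counts in 1 library allowed a level of up to 0.0875 to 0.115 CPM, and 0 counts in all 11 allowed up to 0.00939 CPM for a gene whose reads were not dropped as shared (3 counts over the TMM-scaled library size, which covers counting error only). At 0 in every library stood 11 Hox genes: *Hoxa2*, *Hoxa9*, *Hoxa11*, *Hoxc4*, *Hoxc11*, *Hoxc12*, *Hoxd3*, *Hoxd4*, *Hoxd10*, *Hoxd12* and *Hoxd13*. Of the 28 genes with any count, 13 had one in 1 or 2 libraries, 15 in at least 3, 6 in at least 6 and 1 in all 11. The 4 genes with 10 or more counts in all were *Hoxb13* (100), *Hoxc9* (13), *Hoxc10* (13) and *Hoxc13* (11).

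By their overlap with annotated genes and transcripts, nearly all members could be counted. Copies elsewhere in the genome were not examined. In all, 30 members shared no exon base with another gene of the same strand, and in 32 of 39 none of the 50-base stretches of their transcripts occurred in a transcript of a gene outside the clusters (at most 1.44%, in *Hoxc9*). The exceptions were *Hoxd4*, whose exon bases all (100%) lay under exons of *Gm28230*, *Hoxd3* and a further gene, and *Hoxd3*, with 62.3% shared. The counting program dropped reads that fell on several genes, so the 0 of *Hoxd4* says nothing of its level, that of *Hoxd3* rests on the rest of its exons, and the limit above holds for neither whole gene.

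Per exon length, the gap to the other genes of the culture was wide. The median over the 39 Hox genes of the mean RPKM (counts scaled to exon length and library size) was 0.00238, against 1.59 over all protein-coding genes. All 39 together summed to 0.302 RPKM. *Hoxb13* reached 0.143 RPKM, and 37.2% of protein-coding genes were lower.

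Other homeobox families, chosen for display after their values were seen, were not silent as a class. All 4 Emx and Otx genes, which pattern the forebrain and midbrain, passed the expression rule (median 4.24 RPKM), as did all 4 Pou3f genes of neural progenitors (median 16.4 RPKM, *Pou3f3* at 65.2). Of the Dlx genes, which act in the ganglionic eminence, 4 of 6 were expressed (median 1.605 RPKM), as were 6 of 8 Lhx genes and 4 of 6 in the family of *Six3*. In the Nkx family only 2 of 14 were expressed (median 0.0499 RPKM). The family nearest to Hox was that of Cdx, Evx and Gbx, the caudal and Hox-linked homeobox genes, with 1 of 7 expressed, 3 at 0 in all libraries and a median of 0.00127 RPKM.

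**Figure D2:**
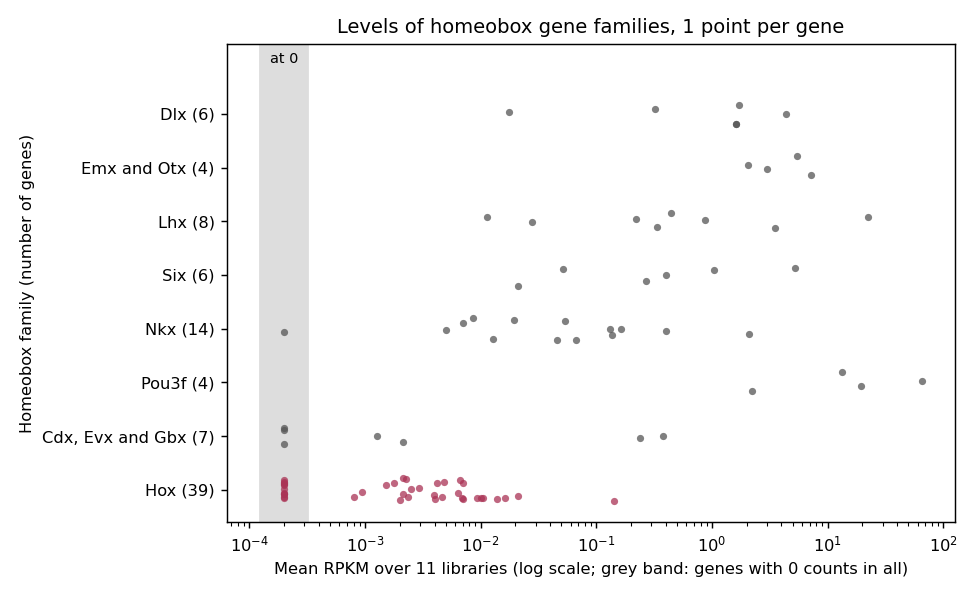
Mean RPKM over 11 libraries (log scale) of each gene in 8 homeobox families, 1 point per gene, with genes at 0 in the grey band. The rightmost Hox point is *Hoxb13* at 0.143 RPKM, and the other 38 lie below 0.03 or in the band, whereas the Pou3f and Emx and Otx points all lie above 1.

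*Hoxb13* (ENSMUSG00000049604, chr11:96194316-96197447, plus strand, GRCm38) is the most posterior gene of the HoxB cluster, known for its role in the prostate, distal gut and tail. It held 7, 5 and 6 counts in the Ctr cultures of embryos SMH_128, SMH_132 and SMH_133. The Ctr + 4-OHT cultures of embryos SMH_125, SMH_126, SMH_129 and SMH_131 held 10, 13, 7 and 15, and the *Smg6*-iKO cultures of embryos SMH_127, SMH_128, SMH_132 and SMH_133 held 12, 10, 6 and 9. The gene was therefore seen everywhere at a very low level, with overlapping groups. Counts averaged 9.09 per library with an SD of 3.24, where counting error alone at that mean gives an SD of 3.02. The tables hold 1 count per gene, so where in *Hoxb13* the reads lay cannot be told.

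The next members were 3 genes of the HoxC cluster that pattern the trunk and its end. *Hoxc10*, a gene of the lumbar spinal cord and hindlimb, had 0, 2 and 0 counts in Ctr, 0, 3, 0 and 0 in Ctr + 4-OHT, and 2 in each of the 4 *Smg6*-iKO cultures (embryos in the order above here and below). *Hoxc9*, a thoracic gene, had 1, 3 and 1 counts in Ctr, 1, 0, 0 and 0 in Ctr + 4-OHT, and 2, 2, 1 and 2 in *Smg6*-iKO. *Hoxc13*, which acts in hair and nail, had 0, 0 and 1, then 1, 2, 0 and 1, then 2, 1, 0 and 3 counts. For all 3 the highest library held 3 counts, and for *Hoxc10* and *Hoxc13* each group overlapped the others. *Hoxc9* had at least 1 count in all 3 Ctr and all 4 *Smg6*-iKO libraries and in 1 of 4 Ctr + 4-OHT libraries.

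*Hoxa7*, a trunk gene, had 0 counts in each Ctr library, 0, 1, 0 and 1 in Ctr + 4-OHT, and 1, 3, 2 and 1 in *Smg6*-iKO. It thus appeared in 4 of 4 *Smg6*-iKO libraries and in no Ctr library, at 3 counts or fewer. *Hoxb1*, the gene of hindbrain rhombomere r4 and the most anterior of its cluster, had 1, 2 and 1 counts in Ctr, 1, 0, 1 and 0 in Ctr + 4-OHT, and 0, 0, 0 and 1 in *Smg6*-iKO. *Hoxd1*, another anterior gene, had 0, 0 and 1, then 0, 1, 0 and 0, then 1, 1, 2 and 0 counts. *Hoxc8* had 0, 1 and 1 counts in Ctr, none in Ctr + 4-OHT, and 1, 1, 2 and 0 in *Smg6*-iKO. *Hoxc6* had 0, 0 and 2, then 0, 1, 0 and 0, then 0, 1, 0 and 1 counts. *Hoxd8* differed from all of these in that its 6 counts came from 1 library, Ctr + 4-OHT embryo SMH_131, with 0 in the other 10. The remaining 18 detected genes had 1 to 5 counts in all.

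By cluster, HoxB (chr11:96194316-96368256) held the 100 counts of *Hoxb13* and 25 on its other 9 genes. HoxC held 52 on 9 genes (chr15:102921103-103036852), HoxA 27 on 11 genes (chr6:52155590-52260880) and HoxD 16 on 9 genes (chr2:74668310-74765142). Counts of any kind were found on all 10 HoxB genes, 8 of 11 HoxA, 6 of 9 HoxC and 4 of 9 HoxD genes. Counts were not concentrated in the anterior genes: paralog groups 1 to 4, the hindbrain genes, held 29 counts on 12 genes, groups 5 to 9 held 62 on 15 genes, and groups 10 to 13 held 129 on 12 genes, or 29 without *Hoxb13*. In RPKM the 3 sets summed to 0.0369, 0.0813 and 0.183.

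Other genes of the clusters had few counts as well. The spans from the first to the last Hox gene held 47 other genes, which received 136 counts in all, and 36 of them had none. Some of these, such as *Gm28230* and *Gm28308*, overlap Hox exons, so that shared reads were dropped and their 0 says nothing of their level. *Gm11539*, a processed pseudogene inside HoxB (chr11:96248633-96249189), took 93 of these counts, with 5 to 14 in each of the 11 libraries. A processed pseudogene can share reads with the gene it was copied from, so its level is uncertain. The antisense RNA *Hoxaas3* had 14 counts, the antisense RNA *Hotairm1* had 10 (0 in Ctr, 5 in Ctr + 4-OHT and 5 in *Smg6*-iKO), *Gm53* had 7 and *Hoxaas2* had 4.

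The clusters also hold microRNA genes, which are transcribed with the neighbouring Hox genes and target Hox mRNAs. All 7 microRNA genes in the spans were at 0, but a library from long total RNA does not capture mature microRNAs, so this says nothing of the mature forms. The 5p forms of the best known, as RefSeq gives them (GRCm38.p6, plus strand except miR-196b), are shown because they fall into only 2 seed groups across the 4 clusters. Bases 2 to 8, the seed that pairs with a target, are in capitals.
miR-10a-5p (HoxB, chr11:96317186-96317208): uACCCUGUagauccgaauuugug
miR-10b-5p (HoxD, chr2:74726074-74726096): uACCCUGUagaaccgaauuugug
miR-196a-5p (HoxB, chr11:96265187-96265208, and HoxC, chr15:102973365-102973386): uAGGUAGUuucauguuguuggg
miR-196b-5p (HoxA, chr6:52230129-52230150): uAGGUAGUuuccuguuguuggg

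The Hox counts were then set against the 3 groups. A library held 10, 15 and 17 Hox counts in Ctr, 18, 24, 18 and 24 in Ctr + 4-OHT, and 23, 23, 21 and 27 in *Smg6*-iKO. These averaged 20.0 with an SD of 4.92, and counting error alone at that mean gives 4.47. The 3 Ctr libraries were the lowest in counts, while those of Ctr + 4-OHT and *Smg6*-iKO overlapped. Scaled to library size Ctr and Ctr + 4-OHT overlapped too, since Ctr embryo SMH_133 (0.651 CPM) lay above Ctr + 4-OHT embryo SMH_129 (0.582 CPM). The *Smg6*-iKO libraries (0.671 to 0.854 CPM) all lay above the Ctr libraries (0.347 to 0.651 CPM).

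In CPM, the 39 genes summed to 0.492 ± 0.152 (SD, n = 3) in Ctr, to 0.755 ± 0.156 (SD, n = 4) in Ctr + 4-OHT and to 0.781 ± 0.0858 (SD, n = 4) in *Smg6*-iKO. The 95% Poisson intervals of the pooled counts ran from 0.351 to 0.658 CPM, from 0.597 to 0.927 CPM and from 0.628 to 0.951 CPM. These intervals cover counting error only, not the spread between cultures or the shared embryos. Without *Hoxb13* the sums were 0.282 ± 0.162 CPM in Ctr, 0.348 ± 0.0543 CPM in Ctr + 4-OHT and 0.477 ± 0.111 CPM in *Smg6*-iKO. *Hoxb13* itself stood at 0.211 ± 0.0446, 0.407 ± 0.138 and 0.304 ± 0.0689 CPM. *Hoxb13* was thus highest on average in Ctr + 4-OHT and the other Hox genes in *Smg6*-iKO. No test was run on a sum over members.

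**Figure D3:**
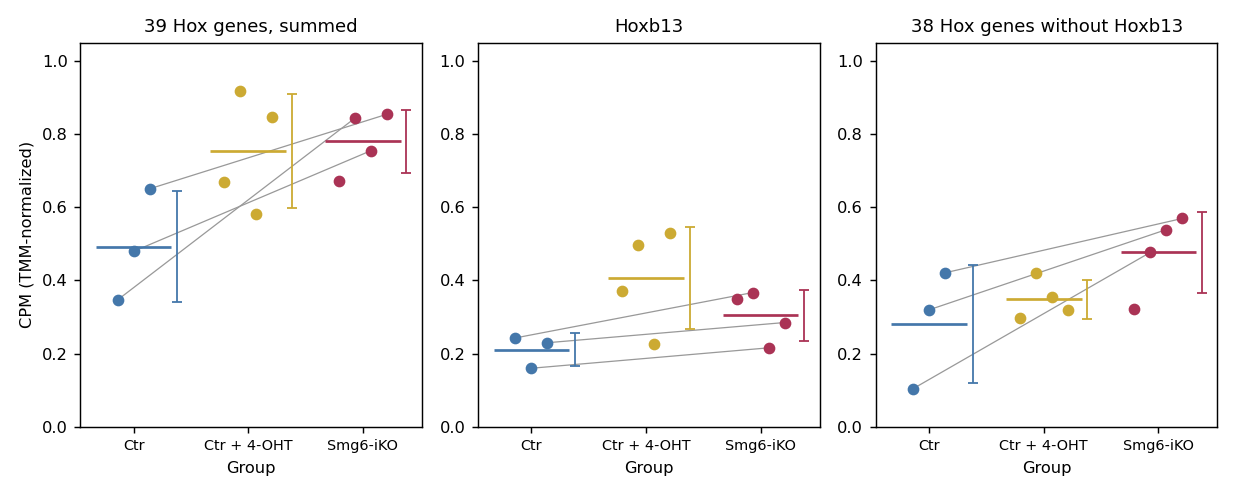
CPM of all 39 Hox genes, of *Hoxb13* and of the other 38, with 1 point per library, a bar at the group mean and an error bar of 1 SD (n = 3, 4 and 4), and grey lines joining cultures of the same embryo. All values lie below 1 CPM, and the *Smg6*-iKO culture lies above the Ctr culture of its embryo in each of the 3 pairs.

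In the 3 embryos with both cultures, summed Hox CPM was 0.347 in Ctr and 0.843 in *Smg6*-iKO for embryo SMH_128, 0.479 and 0.755 for embryo SMH_132, and 0.651 and 0.854 for embryo SMH_133, or 2.43, 1.57 and 1.31 times as high in *Smg6*-iKO. Without *Hoxb13* the ratios were 4.58, 1.69 and 1.35, the first from 3 counts in Ctr. The sum of other low-count genes was also higher in each pair. The other 4934 protein-coding genes with 1 to 100 counts in all summed to 239 CPM in Ctr and 293 in *Smg6*-iKO for embryo SMH_128, to 296 and 342 for embryo SMH_132 and to 277 and 337 for embryo SMH_133, which is 1.23, 1.16 and 1.22 times as high. Over all libraries they summed to 270.4 ± 29.0 CPM in Ctr (n = 3), 253 ± 12.7 in Ctr + 4-OHT (n = 4) and 321 ± 22.8 in *Smg6*-iKO (n = 4). Their part in the Hox values was not tested.

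No Hox gene was called in any of the 3 comparisons (edgeR quasi-likelihood test, Benjamini-Hochberg adjusted p under 0.05). *Smg6*-iKO and Ctr + 4-OHT were both treated and differ in CreER, so CreER activity and *Smg6* deletion cannot be told apart. In *Smg6*-iKO against Ctr + 4-OHT, 1.17% of 17558 tested genes were called. This share was 0.372% to 0.979% without any 1 library, lowest without *Smg6*-iKO embryo SMH_132, and 6.06% by DESeq2. *Hoxb13* was the only member that passed the filter on low counts, at a log2 fold change of -0.38 (SE 0.316, edgeR adjusted p = 0.589). With no filter 27 members were tested and 1.16% of all genes were called, and 3 members had an unadjusted p under 0.05, namely *Hoxd8*, *Hoxc9* and *Hoxc8* (edgeR adjusted p = 0.45, 0.489 and 0.489). DESeq2 gave no member an unadjusted p under 0.05. Here and below, shares of all genes called use adjusted p, so they are no background for unadjusted p values. The share of all genes with an unadjusted p under 0.05 is not given.

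*Smg6*-iKO and Ctr are the same genotype with and without the drug, so the drug and *Smg6* deletion cannot be told apart. In *Smg6*-iKO against Ctr, 9.25% of 17974 tested genes were called and no Hox gene passed the filter. With the embryo as a block, which the shared embryos support, 21.4% were called and again no Hox gene passed the filter. Embryo SMH_127 has no Ctr culture, so the blocked contrast rests on the other *Smg6*-iKO embryos. The blocked fit was not rerun without single libraries. Without any 1 library the unblocked share was 3.15% to 14.1%, lowest without Ctr embryo SMH_132 and highest without *Smg6*-iKO embryo SMH_128. With no filter (7.57% of all genes called) 23 members were tested and 1 had an unadjusted p under 0.05, *Hoxa7* (edgeR adjusted p = 0.159). In a fit of genes with at least 10 counts over the 7 libraries, *Hoxb13* had a log2 fold change of 0.53 (edgeR adjusted p = 0.454), *Hoxc10* one of 1.36 (adjusted p = 0.441) and *Hoxc9* one of -0.0035 (adjusted p = 0.999). The same fit with the embryo block, added after seeing the data, gave log2 fold changes of 0.44, 1.48 and 0.011 (edgeR adjusted p = 0.5995, 0.464 and 0.997). DESeq2 again gave none an unadjusted p under 0.05.

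In Ctr + 4-OHT against Ctr, the 2 control groups, which share no embryo and differ in both the drug and CreER, so that these cannot be told apart, 0.221% of 17665 tested genes were called (0.0279% to 0.309% without any 1 library, lowest without Ctr embryo SMH_128 or SMH_132, and 0.825% by DESeq2). *Hoxb13*, the only member tested, had a log2 fold change of 0.93 (SE 0.383, unadjusted p = 0.0363, edgeR adjusted p = 0.571). It did not pass the filter without Ctr + 4-OHT embryo SMH_125, SMH_126 or SMH_131. With no filter 0.573% of all genes were called and *Hoxb13* was again the only one of 26 members with an unadjusted p under 0.05, and DESeq2 had none. The 3 comparisons share groups pairwise, so their values are not independent. Outside *Hoxb13* and *Hoxd8* no member had over 3 counts in a library, and a missing call does not show equal levels.

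The regional identity of the cultures was checked on marker lists. As these are bulk samples, fewer cells of a type and less RNA per cell cannot be told apart. All 12 neural progenitor genes were expressed, with *Sox2* at 179 to 319.9 CPM, *Nes* at 719.7 to 1018 CPM and *Pax6* at 46.2 to 79.2 CPM. All 10 neuron genes were expressed too, among them *Tubb3* at 325 to 797 CPM. All 14 forebrain genes were expressed, with *Lhx2* at 83.9 to 119 CPM and *Six3* at 1.52 to 3.21 CPM, and the list summed to 242 to 323 CPM in a library.

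Midbrain and hindbrain lists were much lower. Of 9 midbrain and isthmus genes 2 were expressed (sum 8.69 to 13.1 CPM), and *En1*, a defining gene of the midbrain to hindbrain border, stood at 0 to 0.177 CPM. Of 12 hindbrain and spinal cord genes 3 were expressed and the list summed to 13.3 to 20.6 CPM. The defining gene *Egr2* (2.72 to 6.51 CPM), known from rhombomeres r3 and r5 but also from other cell types, was present, whereas *Gbx2* stayed at 0.23 to 0.804 CPM. Forebrain markers were thus present in all libraries and Hox genes, which the hindbrain and spinal cord use, were not expressed.

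**Figure D4:**
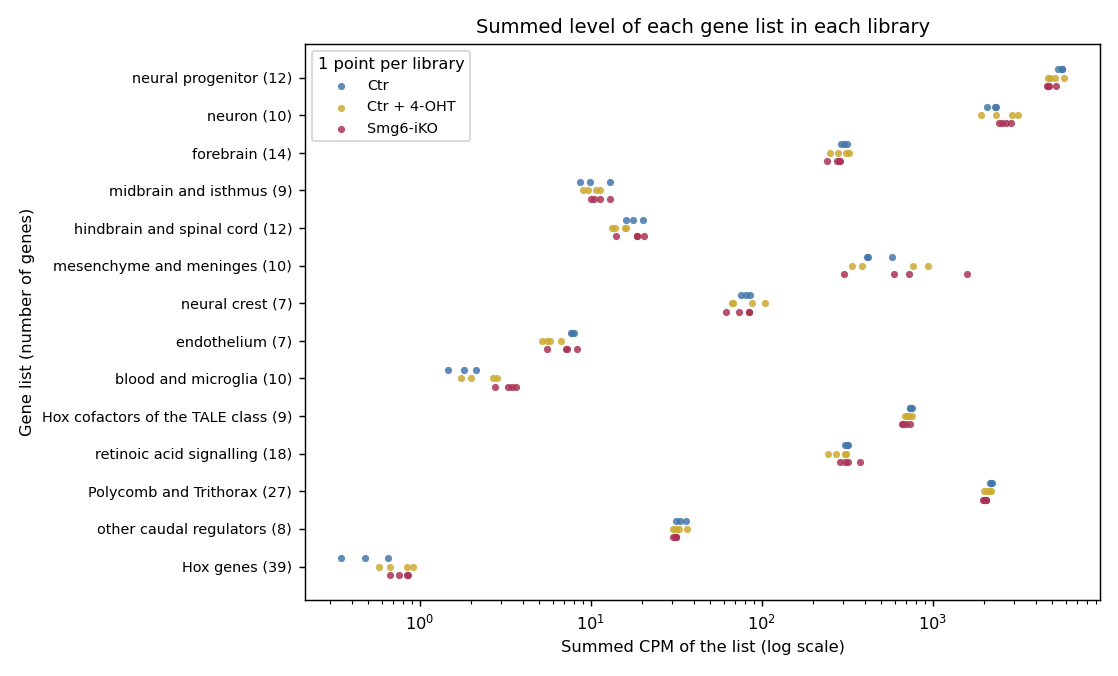
Summed CPM (log scale) of 13 gene lists and of the 39 Hox genes in each library, 1 point per library, coloured by group, with the number of genes in parentheses. The Hox points, at 0.347 to 0.919 CPM, lie left of every other list, and the mesenchyme and meninges points are spread most widely.

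Other cell types that carry Hox codes in the trunk could also be present. All 10 mesenchyme and meninges genes were expressed, and their sum varied 5.26-fold between libraries, from 302 to 1587 CPM, with group ranges of 414 to 582 in Ctr, 340 to 939 in Ctr + 4-OHT and 302 to 1587 in *Smg6*-iKO. The highest library, *Smg6*-iKO embryo SMH_127, had 23 Hox counts and 0.671 CPM of Hox genes, the lowest of its group in CPM (the others stood at 0.755 to 0.854). By contrast, Ctr embryo SMH_133 had the most of both in its group (582 CPM of the list and 0.651 CPM of Hox genes), and Ctr + 4-OHT embryo SMH_129 the least of both (340 and 0.582 CPM). The part of these cells in the Hox values was not tested. Of the neural crest list 4 of 7 genes were expressed (62.2 to 105 CPM, *Foxd3* at 0 to 0.112), of the endothelium list 2 of 7 (5.16 to 8.37 CPM) and of the blood and microglia list 1 of 10 (1.46 to 3.64 CPM). The last list ranged from 1.46 to 2.14 CPM in Ctr, from 1.75 to 2.83 CPM in Ctr + 4-OHT and from 2.74 to 3.64 CPM in *Smg6*-iKO, and its part in the Hox values was not tested.

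Most partners of Hox proteins and most upstream regulators were expressed, other than the caudal ones. TALE homeodomain proteins (Pbx, Meis and Pknox) bind DNA together with Hox proteins and also act without them in the forebrain. All 9 of their genes were expressed, with *Pbx2* at 45.2 to 52.8 CPM and *Pbx3* at 33.7 to 46.6 CPM. Retinoic acid is the signal that switches on anterior Hox genes in the hindbrain. Of 18 genes of its pathway 15 were expressed, with the receptors *Rara* at 32.6 to 47.2 CPM, *Rarb* at 31.8 to 82.9 CPM and *Rarg* at 18.6 to 26.6 CPM.

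Polycomb proteins keep Hox clusters silent and Trithorax proteins keep them active. All 27 genes of that list were expressed, among them the H3K27 methyltransferases *Ezh2* at 116 to 152 CPM and *Ezh1* at 41.2 to 51.0 CPM and their partner *Eed* at 48.9 to 63.9 CPM. Of 8 other caudal regulators 2 were expressed. *Cdx1* and *Cdx4*, which drive posterior Hox genes in the tail bud, had no count in any library and *Cdx2* had 1 count in 1 library. *Gdf11*, a secreted factor that sets posterior Hox borders but is also made by neural cells, stood at 28.4 to 35.2 CPM.

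Calls among these regulators depended on the comparison and on the embryo block. In *Smg6*-iKO against Ctr + 4-OHT none of the 117 tested genes of the 13 lists was called, against 1.17% of all tested genes. The median log2 fold change was -0.016 over 9 TALE genes, 0.269 over 15 tested retinoic acid genes (14 above 0) and -0.057 over 27 Polycomb and Trithorax genes, against 0.012 over all tested genes. Some other lists had a higher median than the retinoic acid list, with no gene called. They were mesenchyme and meninges (0.424, 10 of 10 genes above 0) and endothelium (0.382, 5 tested genes). The same held for midbrain (0.414, 3 tested genes), hindbrain and spinal cord (0.328, 4 tested genes) and blood and microglia (0.445, 2 tested genes). The culture of *Smg6*-iKO embryo SMH_127 was highest in both the mesenchyme list (1587 CPM) and the retinoic acid list (377 CPM). The part of these cells in the retinoic acid values was not tested. Among the alternatives for that comparison, the progenitor gene *Hes5* was called lower with no filter, with all 11 libraries in one fit and by DESeq2, where 1.16%, 2.67% and 6.06% of all genes were called. In Ctr + 4-OHT against Ctr none of 117 was called either, against 0.221% of all genes, though with no filter 4 of 146 genes of the lists were called lower, against 0.573% of all genes called, among them *Egr2* and the retinoic acid gene *Dhrs3*. *Egr2* was also called by DESeq2, and *Dhrs3* without Ctr + 4-OHT embryo SMH_125.

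In *Smg6*-iKO against Ctr 1 of 9 TALE genes was called, a share near the 9.25% of all tested genes. *Meis2*, which marks the lateral ganglionic eminence and striatum as well as acting with Hox proteins, stood at 276.5 ± 7.07 CPM in Ctr (n = 3), 249 ± 6.63 in Ctr + 4-OHT (n = 4) and 228 ± 7.30 in *Smg6*-iKO (n = 4). The highest *Smg6*-iKO library (234 CPM) lay below the lowest Ctr library (270 CPM). It fell by 0.28 on the log2 scale (SE 0.0513, edgeR adjusted p = 0.0103), with an adjusted p of 1.77e-05 to 0.0503 over 14 alternatives, the highest without the Ctr culture of embryo SMH_128.

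Of 27 Polycomb and Trithorax genes 2 were called lower in that comparison and none higher, a share no larger than the 9.25% of all tested genes called in either direction. *Rnf2*, the ubiquitin ligase of Polycomb complex PRC1, fell by 0.25 on the log2 scale (edgeR adjusted p = 0.0423). *Phc2*, another PRC1 subunit, fell by 0.18 (adjusted p = 0.0427). The call of *Rnf2* was lost without Ctr embryo SMH_128 or SMH_132 or *Smg6*-iKO embryo SMH_127, SMH_132 or SMH_133 (adjusted p = 0.0918 to 0.136), and that of *Phc2* without any 1 library other than *Smg6*-iKO embryo SMH_128 (adjusted p = 0.074 to 0.151). With all 11 libraries in one fit neither passed (adjusted p = 0.0585 and 0.0506), and *Phc2* also missed with no filter (0.103) or at 10 counts (0.0625). With the embryo block both passed (0.00304 and 0.00961), and 6 of 27 genes of the list were lower, among them *Ezh2*, and none higher, which is close to the 21.4% of all tested genes called with the block. Of the retinoic acid list no gene was called without the block (median 0.115 on the log2 scale over 15 tested genes). With it 3 were higher, namely *Aldh1a2*, which makes retinoic acid, *Cyp26b1*, which degrades it, and the receptor *Rxrg*, and *Dhrs3*, a retinal reductase, was lower. These are 4 of 15 tested genes, to be read against the 21.4% of all genes.

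Of the marker lists, 7 of 12 progenitor genes and 4 of 14 forebrain genes were lower and 1 forebrain and 1 neuron gene higher in *Smg6*-iKO, against 9.25% of all tested genes called in either direction. These counts rest on single libraries: without any 1 library 2 to 8 progenitor genes were lower (2 without Ctr embryo SMH_128 or SMH_132, 3 without *Smg6*-iKO embryo SMH_133), 0 to 4 forebrain genes were lower (0 without any 1 of those same 3 libraries, 1 without *Smg6*-iKO embryo SMH_127) and 0 to 4 neuron genes were higher (4 without *Smg6*-iKO embryo SMH_128). With all 11 libraries in one fit 3 progenitor and 2 forebrain genes were lower and none of the 3 lists had a higher gene, against 4.39% of all genes. With the embryo block 8 progenitor and 5 forebrain genes were lower and 1 forebrain and 6 neuron genes higher, against 21.4% of all tested genes. No gene of the midbrain, hindbrain, mesenchyme, neural crest, endothelium, blood or caudal lists was called without the block. With it, 2 of 2 tested blood and microglia genes were higher, where the other genes of that list of 10 did not pass the filter. With the block, 1 neural crest gene and 1 mesenchyme gene (*Col1a1*) were also higher. Called lower were 1 hindbrain gene (*Egr2*), 1 endothelium gene and 2 mesenchyme genes, and no midbrain or caudal gene was called.

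The labels themselves were checked with *Smg6* and *Esr1*, whose ligand-binding part CreER contains. *Esr1* stood at 4.29 ± 0.324 CPM in Ctr, 0.135 ± 0.105 CPM in Ctr + 4-OHT and 4.22 ± 0.371 CPM in *Smg6*-iKO, which follows the labelled RosaCreER genotypes. *Smg6* stood at 74.4 ± 4.96, 69.3 ± 3.22 and 66.0 ± 4.57 CPM. The table counts the whole gene, so it cannot show the loss of a floxed part, and deletion was not checked here.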

How the data were processed

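The authors sequenced ribosome-depleted stranded total RNA as 50 bp single reads, aligned them to GRCm38 with STAR 2.5.4b and counted uniquely mapped reads per gene on the sense strand with featureCounts 1.5.0 (submitters' notes and methods). The deposited unit is raw counts per gene. The deposited tables also hold exon lengths (other), from which RPKM was computed here. Symbols came from GENCODE M21, which paired 53706 of 53801 identifiers. The deposited counts were tested with edgeR 4.0.16 (R 4.3.3) on the 2 groups compared, after filterByExpr and TMM. DESeq2 1.42.0, other filters and scalings, an embryo block and each library left out were alternatives. CPM used TMM sizes over 11 libraries. The edgeR step was tested on simulated data. Members and lists were chosen with earlier results of these data known. By rule, all Hox genes, values per library of the 10 highest, the first 3 genes of each list and up to 3 called were eligible to be named. Each library was 1 culture. Same-embryo cultures of Ctr and *Smg6*-iKO deviated together (r = 0.328, 0.399 and 0.425 over 18123 genes, other pairs -0.265 to 0.0948), and they share a number in the titles, read here as the embryo. No pair of libraries in a group was a duplicate (chi-square per gene 9.99 to 38.6). Values of 1 Hox gene and of some marker genes are not reported here by name, though they are in the counts and sums.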

Additional observations from a re-analysis of the deposited data

Results flagged for a closer look

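In 6 of 50 groups of 4 libraries tested, 1 library stood apart from the other 3, all of which were at 0. Chance alone flags about 1 in 20 groups, and in counts this low any single non-zero library is picked out in this way. In Ctr + 4-OHT these were *Hoxc10* in embryo SMH_126 (0.115 CPM, 3 counts), *Hoxd1* in embryo SMH_126 (0.0383 CPM, 1 count), *Hoxc6* in embryo SMH_126 (0.0383 CPM, 1 count), *Hoxc9* in embryo SMH_125 (0.0372 CPM, 1 count) and *Hoxd8* in embryo SMH_131 (0.212 CPM, 6 counts). In *Smg6*-iKO it was *Hoxb1* in embryo SMH_133 (0.0316 CPM, 1 count). *Hoxd8* was the only one of these above 3 counts.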

How the results depend on the processing

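The number of Hox genes called was 0 in all 3 comparisons under every alternative run, with 0 to 27 members tested. With the embryo as a replicate block, *Smg6*-iKO against Ctr, 0 Hox genes were called and 0 passed the filter, and 0 of 3 were called at 10 counts or more with the block. Over all genes the block raised the number called from 1663 to 3854, DESeq2 gave 2421, and the fit of all 11 libraries gave 796. In *Smg6*-iKO against Ctr + 4-OHT these were 206, 873 by DESeq2 and 484 with all 11 libraries, and in Ctr + 4-OHT against Ctr 39, 169 and 60. With no filter 418, 2714 and 198 genes were called, in the order *Smg6*-iKO against Ctr + 4-OHT, *Smg6*-iKO against Ctr and Ctr + 4-OHT against Ctr. For *Hoxb13*, the log2 fold change ranged from -0.6 to -0.23 in *Smg6*-iKO against Ctr + 4-OHT (edgeR adjusted p = 0.386 to 0.794). In Ctr + 4-OHT against Ctr it ranged from 0.76 to 1.14 (adjusted p = 0.195 to 0.906, edgeR or DESeq2). That range leaves out the fits without Ctr + 4-OHT embryo SMH_125, SMH_126 or SMH_131, in which *Hoxb13* did not pass the filter. Those libraries held more *Hoxb13* counts than embryo SMH_129, whose removal gave the highest value. DESeq2 gave an adjusted p for 1 member in 1 comparison, *Hoxb13* in Ctr + 4-OHT against Ctr, and NA otherwise. At 0.1 CPM in at least 3 libraries, an alternative chosen after seeing the data, 1 Hox gene counted as expressed, *Hoxb13*. Without *Hoxb13*, also chosen afterwards, the summed Hox level moved to 0.282 CPM in Ctr, 0.348 in Ctr + 4-OHT and 0.477 in *Smg6*-iKO. At this depth all Hox values outside *Hoxb13* rest on a few counts.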
